A study of Mus musculus with 15 samples.

Results

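The B-cell lineage genes described here were Ms4a1, Cd79a, Cd79b, Pax5, Cd22, Blk, Fcer2a, Cr2 and Bank1, chosen by name. All 9 had a row among the 48709 genes of the count table, and all 9 were among the 16554 genes with enough counts to be tested. RNA came from pancreatic islets of NOD (NOD/ShiLtJ) females, an inbred strain that develops autoimmune diabetes with no treatment. There were 3 mice at each of 5 ages, 4, 6, 8, 10 and 12 weeks, 15 mice in all, and no group received an agent, carried a transgene or came from another strain. Age was therefore the difference between groups, and no strain without diabetes was measured. Islets were freed with collagenase, separated on a gradient and picked by hand, so each sample held endocrine cells together with whatever leukocytes were in or on the islets.

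B cells carry an antigen receptor made of a membrane immunoglobulin and the signalling pair encoded by Cd79a and Cd79b. Pax5 is the transcription factor that keeps cells in the B lineage. Cd22 holds receptor signalling down, whereas the Src-family kinase Blk and the adaptor Bank1 act downstream of the receptor. Ms4a1 encodes CD20, Cr2 encodes the complement receptors CD21 and CD35, and Fcer2a encodes the low-affinity IgE receptor CD23; CD21 and CD23 are high on mature B cells, and follicular dendritic cells, a stromal cell of lymphoid follicles, can carry them too. B cells enter NOD islets along with T cells during insulitis, the infiltration of islets by leukocytes, and present antigen to T cells there. Cd3e, a chain of the T-cell receptor complex, served as the T-cell reference for timing.

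Upstream windows from the RefSeq table used here, on assembly GRCm38.p6, were matched for 6 of the 9 genes, Cd79a, Cd22, Bank1, Cr2, Pax5 and Fcer2a, and none is given for Cd79b, Ms4a1 and Blk. The windows ran from 250 bases before to 50 after an annotated start. They were searched on both strands for letters linked to B-cell transcription factors. The 3 genes with a match are given here over the 250 bases before the start, 5′ to 3′ on the gene's strand. Whether these letters bear on the rise with age was not tested. Capitals mark the match. Cd79a is at chr7:24897247-24897496 on the + strand, and its capitals are the reverse complement of GAGGAA, a core of the PU.1 site. Cd22 is at chr7:30879029-30879278 and Bank1 at chr3:136326067-136326316, both on the − strand, and their capitals are CCCNNGGG, the paired sites of EBF1.
Cd79a: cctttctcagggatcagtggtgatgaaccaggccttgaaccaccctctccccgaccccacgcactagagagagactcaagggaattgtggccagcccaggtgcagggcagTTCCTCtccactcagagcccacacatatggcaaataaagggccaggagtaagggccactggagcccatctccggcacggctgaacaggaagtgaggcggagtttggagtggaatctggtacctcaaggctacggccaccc
Cd22: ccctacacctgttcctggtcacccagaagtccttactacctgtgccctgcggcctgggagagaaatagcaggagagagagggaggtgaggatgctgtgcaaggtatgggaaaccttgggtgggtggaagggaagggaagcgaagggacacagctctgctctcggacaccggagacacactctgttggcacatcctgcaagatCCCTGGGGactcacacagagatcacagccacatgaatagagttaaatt
Bank1: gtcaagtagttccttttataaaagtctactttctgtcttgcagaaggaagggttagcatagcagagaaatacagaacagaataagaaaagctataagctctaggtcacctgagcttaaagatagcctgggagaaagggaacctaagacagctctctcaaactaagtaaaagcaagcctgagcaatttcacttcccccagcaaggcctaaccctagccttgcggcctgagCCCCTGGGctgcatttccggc
The match began 140 bases before the RefSeq start in Cd79a, 48 in Cd22 and 21 in Bank1. In Cd79a and Cd22 the RefSeq start lies inside the gene position given below, so the printed bases lie partly (Cd79a) or wholly (Cd22) within that position. In Bank1 the printed bases end where the gene position begins. GAGGAA was thus in 1 of the 6 genes with a window and CCCNNGGG in 2 of the 6. Among 32851 mouse promoter windows of the same length, GAGGAA was present in 28.3% and CCCNNGGG in 13.7%. The octamer ATGCAAAT, bound by Oct factors, was present in 1.74% of windows and in 0 of the 6 genes with a window, which says only that these letters were not in these windows.

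Total counts per mouse ran from 25407492 to 41616275, at which 3 counts are worth 0.0754 to 0.128 CPM (the count as a share of the library's total, after TMM scaling between libraries). Endocrine transcripts were abundant at both ends of the series but lower at the older end. The 10 endocrine genes, the hormone genes among them, summed to 308979 to 342627 CPM at 4 weeks and 150680 to 191524 at 12 weeks. Replicate 2 of the 6-week-old and replicate 1 of the 12-week-old mice also held intestinal transcripts, with 540 and 2067 counts of Apoa4 against 0 to 2 in the other 13 mice. Results that involve these ages were therefore also computed without both mice. In bulk RNA, fewer cells of a type and less RNA per cell cannot be told apart, which applies to every level below.

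The 9 genes together were close to absent at 4 weeks and abundant at 10 and 12 weeks. Their summed level was 5.39 to 9.75 CPM at 4 weeks and 7.81 to 23.6 CPM at 6 weeks. It was 50.8 to 131 CPM at 8 weeks. The 10-week-old mice had 198 to 517 CPM and the 12-week-old mice 348 to 564 CPM. Each of the 8-week-old mice was therefore above every younger mouse and below every older mouse, whereas the ranges at 10 and 12 weeks overlapped. Cd79a supplied most of the sum at 4 weeks, and the other 8 genes had 21 counts or fewer in each of the 4-week-old mice.

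**Figure D1:**
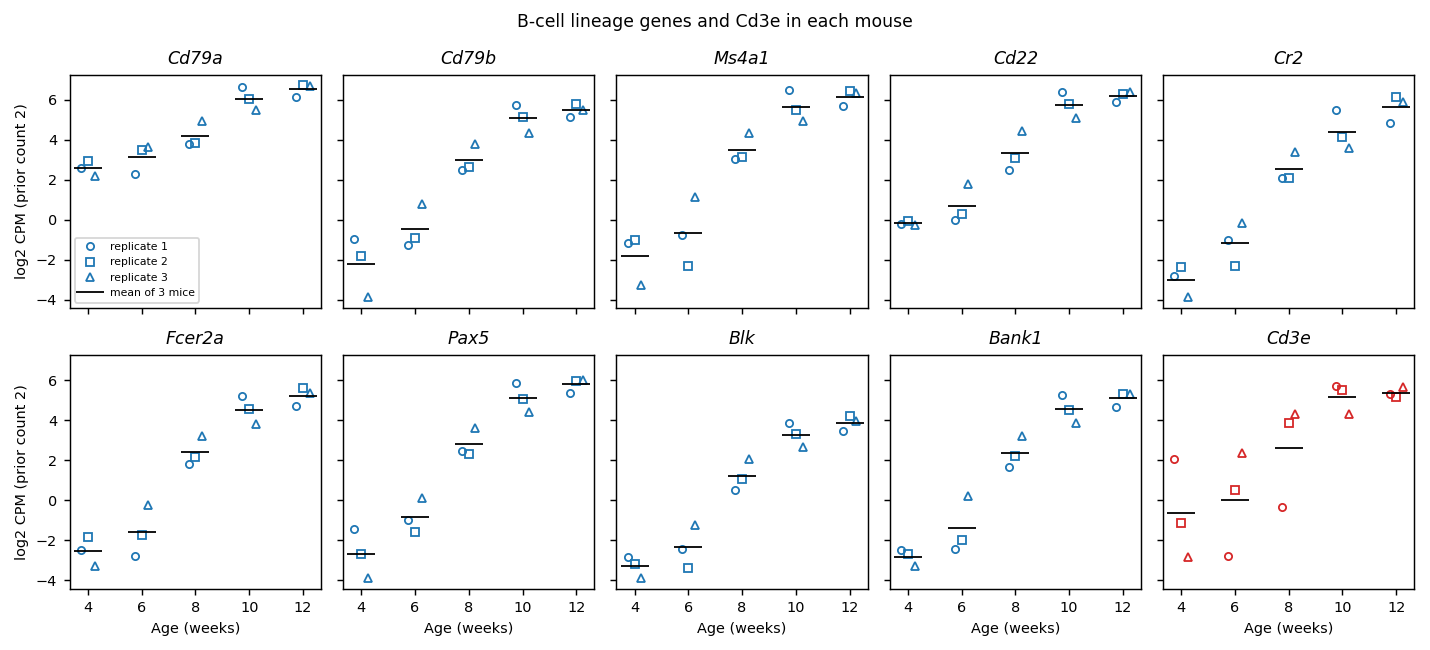
Log2 CPM (prior count of 2) of each B-cell lineage gene and of Cd3e (red) against age in weeks, with a symbol for each of the 3 mice per age and a bar at their mean. Blue points of the 8-week-old mice lie together and above the younger mice, while Cd3e in replicate 1 at 8 weeks lies at the level of the 4- and 6-week-old mice.

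The receptor signalling pair had the highest TPM of the members at 12 weeks. Cd79a (ENSMUSG00000003379, chr7:24897381-24902197, GRCm38, as for all positions below) had 156, 179 and 125 counts in replicates 1, 2 and 3 at 4 weeks. At 6 weeks it had 122, 420 and 311 counts, and at 8 weeks 381, 392 and 842. At 10 weeks it had 2711, 2557 and 1355 counts, and at 12 weeks 2184, 3158 and 3261. Mean CPM was 6.00 ± 1.57 (SD, n = 3) at 4 weeks and 93.0 ± 19.3 at 12 weeks, and no mouse of 8 weeks or more had a CPM as low as the younger ones. Cd79b (ENSMUSG00000040592, chr11:106311341-106314762), whose protein pairs with that of Cd79a, had 12, 5 and 0 counts at 4 weeks and 9, 18 and 42 at 6 weeks. It had 151, 172 and 387 counts at 8 weeks, 1492, 1380 and 609 at 10 weeks, and 1097, 1636 and 1435 at 12 weeks. Mean CPM of Cd79b went from 0.221 ± 0.225 at 4 weeks to 45.1 ± 9.57 at 12 weeks.

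The pair did not keep a fixed proportion. Counts of Cd79a were 1.82 to 2.52 times those of Cd79b in the 9 mice of 8 to 12 weeks. In 5 of the 6 younger mice they were 7.40 to 35.8 times as high, and the sixth, replicate 3 at 4 weeks, had 125 counts of Cd79a with none of Cd79b. On TPM, which allows for transcript length, the proportion was 1.78 to 2.48 in the older mice. Arhgef1, a widely expressed gene on the same strand, begins 715 bases past the end of Cd79a and had 85.3 to 90.2 CPM at 4 weeks and 169 to 221 CPM at 12 weeks. Its part in the Cd79a counts was not tested.

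Among the surface receptors, Ms4a1 (ENSMUSG00000024673, chr19:11249675-11266241) had 10, 10 and 1 counts at 4 weeks and 13, 5 and 55 at 6 weeks. It reached 225, 241 and 567 counts at 8 weeks, 2451, 1769 and 919 at 10 weeks, and 1582, 2569 and 2600 at 12 weeks. The values at 4 and 6 weeks overlapped, and those at 8 weeks overlapped with no other age. Mean CPM was 0.279 ± 0.212 at 4 weeks and 73.0 ± 18.9 at 12 weeks.

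Cd22 (ENSMUSG00000030577, chr7:30865402-30880342), the inhibitory sialic acid-binding receptor, had exactly 21 counts in each of the 4-week-old mice. Counts were 23, 44 and 87 at 6 weeks and 152, 235 and 613 at 8 weeks. They were 2279, 2159 and 1007 at 10 weeks and 1796, 2318 and 2684 at 12 weeks. Besides Cd79a, Cd22 was the member with the highest level at 4 weeks, 0.815 ± 0.0733 CPM, and it reached 73.4 ± 13.6 CPM at 12 weeks.

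Cr2 (ENSMUSG00000026616, chr1:195136811-195176716) had 2, 3 and 0 counts at 4 weeks and 11, 5 and 21 at 6 weeks. It had 116, 119 and 291 counts at 8 weeks and 1213, 688 and 364 at 10 weeks. At 12 weeks it had 887, 2114 and 1859 counts, and its mean of 52.6 ± 21.6 CPM stood against 24.4 ± 17.1 CPM at 10 weeks, with overlap between the mice. Relative to Ms4a1 in the same mouse, Cr2 counts were 0.494 to 0.516 times as high at 8 weeks, 0.389 to 0.495 at 10 weeks and 0.561 to 0.823 at 12 weeks. The 12-week-old mice were thus all above the 10-week-old mice in this proportion, which was picked out after its values were seen and has no test.

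Fcer2a (ENSMUSG00000005540, chr8:3681737-3694175) had 3, 5 and 1 counts at 4 weeks and 2, 9 and 20 at 6 weeks. Its counts were 96, 123 and 256 at 8 weeks, 1037, 931 and 420 at 10 weeks, and 807, 1445 and 1308 at 12 weeks. The mean rose from 0.121 ± 0.0891 CPM at 4 weeks to 38.5 ± 11.3 CPM at 12 weeks, and the 4- and 6-week-old mice overlapped.

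The transcription factor Pax5 (ENSMUSG00000014030, chr4:44524757-44710487) had 8, 2 and 0 counts at 4 weeks and 11, 10 and 26 at 6 weeks. It had 149, 137 and 345 counts at 8 weeks, 1622, 1322 and 648 at 10 weeks, and 1274, 1882 and 2044 at 12 weeks. Its mean level was 0.128 ± 0.154 CPM at 4 weeks, 7.55 ± 4.14 at 8 weeks and 56.2 ± 12.9 at 12 weeks.

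Blk and Bank1, the signalling genes, had the lowest TPM of the members at 12 weeks. Blk (ENSMUSG00000014453, chr14:63372837-63417187) had 2, 1 and 0 counts at 4 weeks, 3, 1 and 9 at 6 weeks and 38, 56 and 116 at 8 weeks. It had 405, 388 and 188 counts at 10 weeks and 337, 555 and 489 at 12 weeks. Bank1 (ENSMUSG00000037922, chr3:136053363-136326066) had 3, 2 and 1 counts at 4 weeks and 3, 7 and 28 at 6 weeks. Its counts were 86, 129 and 255 at 8 weeks, 1074, 895 and 437 at 10 weeks, and 769, 1180 and 1280 at 12 weeks. In both genes, as in the other members, replicate 3 was the highest of the 8-week-old mice and the lowest of the 10-week-old mice in counts.

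Levels of different genes were compared as TPM. At 12 weeks Cd79a was highest at 161 ± 39.0 TPM, followed by Cd79b at 79.4 ± 17.5 TPM. Cd22 at 37.2 ± 8.82, Fcer2a at 31.5 ± 9.71 and Ms4a1 at 29.8 ± 8.62 TPM came next, with ranges between mice that overlapped. Within each of the 12-week-old mice, Cd22 and Fcer2a were both above Ms4a1. Cr2 at 16.4 ± 6.90, Pax5 at 16.1 ± 4.34, Blk at 15.2 ± 4.08 and Bank1 at 11.8 ± 3.38 TPM formed the end of the order, also with overlapping ranges. Bank1 was the lowest of them within each of the 12-week-old mice. At 4 weeks Cd79a had 7.90 ± 1.92 TPM and the other 8 members had means of 0.0159 to 0.314 TPM.

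From 4 to 12 weeks every member rose. The edgeR quasi-likelihood fit over all 15 mice, with Benjamini-Hochberg adjustment over 16554 genes, gave an adjusted p under 0.05 for 9 of 9 members, against 26.3% of all genes called higher. The log2 fold change was 3.96 ± 0.44 (SE) for Cd79a (adjusted p = 0.000154) and 9.58 ± 0.94 for Cr2 (adjusted p = 0.000128). The others lay between, with Pax5 at 8.72 ± 0.76 (adjusted p = 0.000117) and Cd22 at 6.49 ± 0.66 (adjusted p = 0.000128). The median over the members was 8.32, and the median over all genes was -0.05. All 3 mice of 12 weeks lay above all 3 of 4 weeks for 9 of 9 members, as they did for 30.3% of all genes, and 9 of 9 had a fold change of at least 1.5 with an unadjusted p under 0.05 (20.9% of all genes). With so few counts at 4 weeks, the size of the largest folds is loose: the ratio of CPM between the ages was 387 for Blk (95% exact interval 132 to 1877, from 3 counts at 4 weeks), 816 for Cr2 (350 to 2515, from 5 counts) and 452 for Bank1 (207 to 1232, from 6 counts). These intervals cover counting error only. The members also changed with age when all differences between ages were tested jointly (9 of 9, against 56% of all genes), with adjusted p of 0.000178 to 0.00023.

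By consecutive ages, most of the rise fell between 6 and 10 weeks. Between 4 and 6 weeks, 0 of 9 members passed an adjusted p of 0.05 (0.00604% of all genes higher) and 0 of 9 passed the looser threshold of a fold change of at least 1.5 with an unadjusted p under 0.05 (1.15% of all genes higher). Log2 fold changes were 0.65 to 2.67, with unadjusted p of 0.0504 to 0.149. By that looser threshold the edgeR exact test gave 7 members and DESeq2 4, for which the share of all genes was not computed. Neither gave a member at an adjusted p of 0.05 (0.205% and 0.397% of all genes higher). On CPM, Cd22, Cr2 and Bank1 had no overlap between the ages, against 8.34% of all genes higher without overlap. For Bank1 the highest 4-week-old and the lowest 6-week-old mouse both had 3 counts (0.112 and 0.119 CPM).

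Between 6 and 8 weeks the mice did not overlap for 9 of 9 members (7.62% of all genes), and 9 of 9 passed the looser threshold (8.4% of all genes higher). The log2 fold change was 1.04 ± 0.40 for Cd79a, 2.73 ± 0.56 for Cd22 and 3.40 to 4.01 for the other 7 members. In the edgeR quasi-likelihood test the adjusted p was 0.117 to 0.217 and 0 of 9 members were called, at unadjusted p of 3.18e-05 to 0.0224, which were under 0.05 for all 9. No gene of the 16554 was called higher or lower in this comparison (0%), and the smallest adjusted p of any gene was 0.087. The edgeR exact test and DESeq2 each called 8 members at this step (1.61% and 2.64% of all genes higher). The quasi-likelihood test called 8 when replicate 1 of the 8-week-old mice was left out (4.29% of all genes higher). Cd79a was the member not called in each case.

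Between 8 and 10 weeks all 9 members rose, with adjusted p of 0.0236 to 0.0367, against 8.4% of all genes called higher. The log2 fold changes were close to each other, from 1.84 ± 0.39 for Cd79a to 2.32 ± 0.48 for Pax5, and the ages did not overlap for 9 of 9 members (17.2% of all genes). Leaving out replicate 1 or 2 of the 8-week-old mice, or replicate 1 or 2 of the 10-week-old mice, left 0 of 9 called, while 9 of 9 passed the looser threshold in each of these fits (11.1% of all genes higher with all mice).

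Between 10 and 12 weeks 0 of 9 members were called by the edgeR quasi-likelihood test, by the edgeR exact test or by DESeq2, and 0 had an unadjusted p under 0.05. At this step 0% of all genes were called higher and 1.61% passed the looser threshold. The log2 fold changes were 0.31 to 0.63 in 8 members, and Cr2 had 1.11 ± 0.53 (unadjusted p = 0.057, adjusted p = 0.664). For every member the mice of both ages overlapped, while 4.42% of all genes were higher without overlap.

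Over the 6 mice of 10 and 12 weeks against the 6 of 4 and 6 weeks, 9 of 9 members were higher, with log2 fold changes of 3.42 to 7.69 and adjusted p of 9.29e-06 to 1.4e-05. In this comparison 30.1% of all genes were called higher. Every member was also past the looser threshold (20.6% of all genes), and none overlapped between the older and the younger mice (19.7% of all genes). Without both mice that held intestinal transcripts, 9 of 9 members were still called here, in the comparison of 12 with 4 weeks and in that of 10 with 8 weeks.

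**Figure D2:**
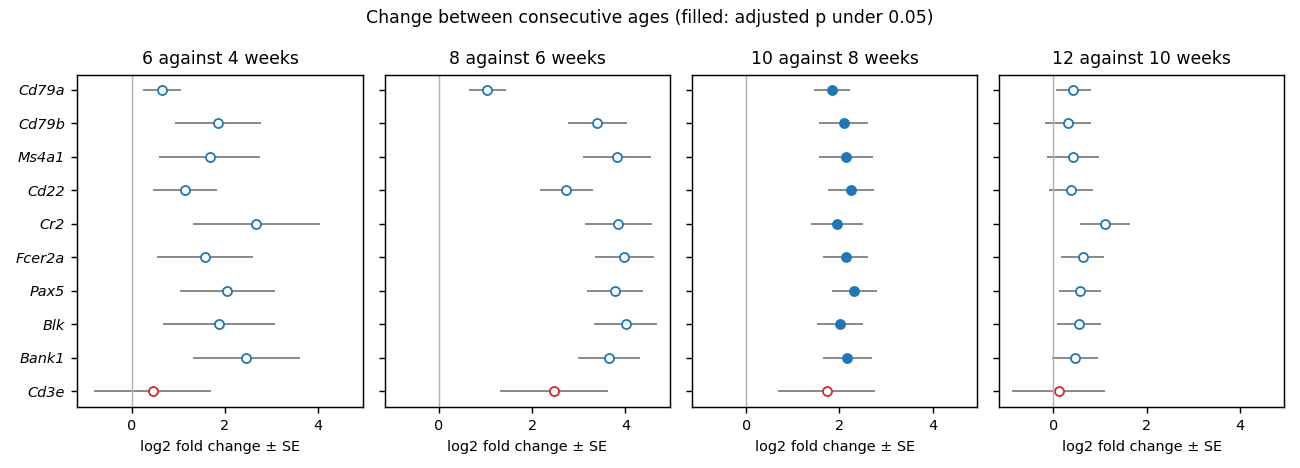
Log2 fold change with its standard error (edgeR quasi-likelihood fit) of each B-cell lineage gene (blue) and Cd3e (red) at each step between consecutive ages. Filled points have an adjusted p under 0.05, which the 9 B-cell lineage genes had at 10 against 8 weeks alone among the 4 steps.

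The timing of the T-cell reference was more variable between mice. Cd3e (ENSMUSG00000032093, chr9:44998743-45009590) had 110, 9 and 2 counts in the 4-week-old mice and 2, 51 and 127 in the 6-week-old mice. At 8 weeks it had 20, 406 and 556 counts, at 10 weeks 1420, 1783 and 601, and at 12 weeks 1207, 1077 and 1610. Replicate 1 at 8 weeks thus lay within the range of the younger mice for Cd3e, and replicate 1 at 4 weeks lay near the top of it. From 4 to 12 weeks Cd3e rose by a log2 fold change of 4.76 ± 1.24 (edgeR, adjusted p = 0.00648). At 8 against 6 weeks its log2 fold change was 2.47 ± 1.15 (adjusted p = 0.28) with overlap between the mice, and at 10 against 8 weeks it was 1.73 ± 1.04 (adjusted p = 0.236).

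The 8-week-old mice differed among themselves in the level of Cd3e beside that of the members, which was compared as TPM. In replicate 1 Cd3e had 1.01 TPM and 8 of the 9 members were above it, with Ms4a1 at 2.64 TPM and Bank1, at 0.835 TPM, the one below. In replicate 2, 0 members were above Cd3e, and the highest of them was Cd79a at 21.9 TPM. In replicate 3 Cd3e had 31.8 TPM and 1 member, Cd79a at 47.4 TPM, was above it. In counts, which are not scaled for length, 9, 0 and 3 members were above Cd3e in replicates 1, 2 and 3. The ratio test of 8 against 6 weeks, given below, called 0 of 9 members. The 14 T-cell genes summed to 14.6 CPM in replicate 1, inside the 3.80 to 55.2 CPM of the 4- and 6-week-old mice, and to 198 and 275 CPM in replicates 2 and 3. The 9 B-cell lineage genes summed to 50.8, 57.2 and 131 CPM in the same 3 mice, all above the 23.6 CPM that was the most in a younger mouse. Cxcl13, which encodes the chemokine that draws B cells into follicles, had 867 counts in replicate 1, and 627 and 358 in replicates 2 and 3. Replicate 1 at 4 weeks had 110 counts of Cd3e, against 9 and 2 in the other mice of that age, while its 10 counts of Ms4a1 stood beside 10 and 1. These mice were singled out after their values were seen.

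**Figure D3:**
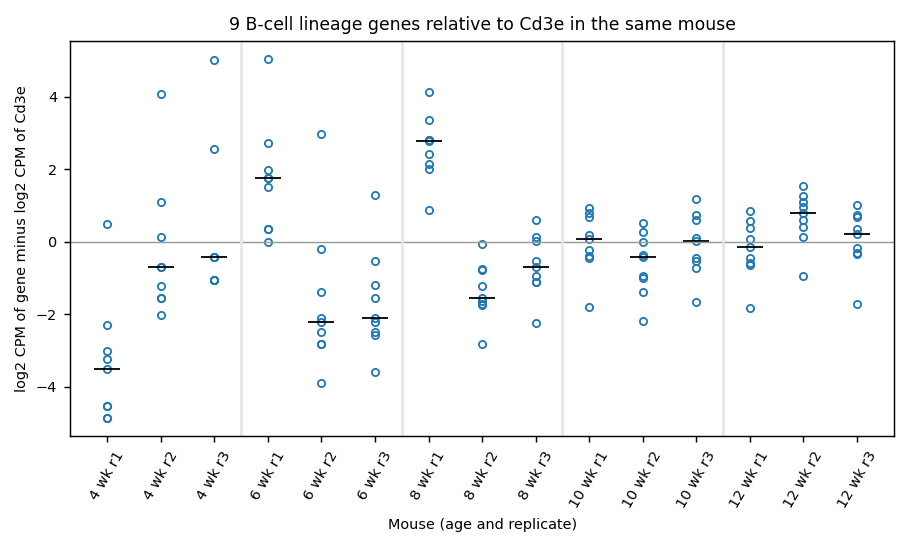
Log2 CPM of each of the 9 B-cell lineage genes minus log2 CPM of Cd3e in the same mouse, by mouse in order of age, with a bar at the median. The median was -3.51 in replicate 1 at 4 weeks and 2.79 in replicate 1 at 8 weeks, and it lay between -0.43 and 0.80 in the 6 mice of 10 and 12 weeks.

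Within-mouse ratios to Cd3e were tested with limma on log2 CPM over all genes. Relative to Cd3e, 0 of 9 members were called in each of the 4 steps between consecutive ages, at 12 against 4 weeks and at 10 and 12 against 4 and 6 weeks, and 0 had an unadjusted p under 0.05 in any of them. No gene was called higher relative to Cd3e in the 4 steps (0%), 0.00604% were at 12 against 4 weeks and 0.0181% at 10 and 12 against 4 and 6 weeks. Most genes fell in this ratio, with a median change over all genes of -6.06 and -5.63 in the last 2 comparisons. In these, 15439 and 15867 of 16553 genes had an unadjusted p under 0.05 (limma, either direction), which no member had. At 12 against 4 weeks the ratio changed by -2.07 (Cd79a) to 2.62 (Cr2, 95% interval -0.51 to 5.74) on the log2 scale, and was above 0 for 8 of 9 members. The intervals of the members, from the pooled spread that limma uses, ran from -5.35 to 5.74. Differences of many-fold either way could therefore not be told from none with Cd3e as the reference. Use of each gene's own spread gave 0 called members in each comparison. The smallest adjusted p of a member was then 0.0559, at 10 and 12 against 4 and 6 weeks. With the mean of Cd3d, Cd3e and Cd3g as reference the count was also 0 in each comparison.

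The ratio to Ptprc, which encodes CD45 and is expressed by all leukocytes, spread less between mice. In a fit in which each gene kept its own spread (10 residual degrees of freedom), 7 of 9 members rose relative to Ptprc from 4 to 12 weeks, against 0.381% of all genes called higher. The change in the log2 ratio was largest for Cr2 at 3.67 ± 0.88 (SE, adjusted p = 0.00225), Pax5 at 3.495 ± 0.66 (adjusted p = 0.000922) and Ms4a1 at 3.01 ± 0.83 (adjusted p = 0.00521), and smallest among those called for Blk at 2.20 ± 0.70 (adjusted p = 0.0114). Cd22 had 1.40 ± 0.69 (adjusted p = 0.0717) and Cd79a -1.02 ± 0.77 (adjusted p = 0.222). The same 7 members were called at 10 and 12 against 4 and 6 weeks (0.52% of all genes), with changes of 1.78 to 2.58. With the pooled spread that limma uses, 7 members were called in each as well (0.23% and 0.266% of all genes). With any of the 15 mice left out, or both mice that held intestinal transcripts, 7 or 8 members were called higher in these comparisons. Cd79a was called lower in 5 of these 32 fits, for example by -1.84 without replicate 1 at 4 weeks. Shares of all genes were not computed for these fits. A gene that does not rise with Ptprc falls in this ratio by construction, so the background shares of genes called higher are low. For the same reason a call lower is not particular to Cd79a. At each step between consecutive ages 0 of 9 members were called relative to Ptprc with each gene's own spread (0% of all genes higher). The median change at 10 against 8 weeks was -0.001. Cd3e itself changed by 1.05 ± 0.92 relative to Ptprc at 12 against 4 weeks with the pooled spread (limma, adjusted p = 0.264).

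As a description of timing, the age at which the mean CPM crossed 50% of the 12-week mean was read by linear interpolation between ages. It was 9.01 weeks for Cd79b, 9.09 for Cd79a, 9.11 for Cd22, 9.14 for Ms4a1, 9.20 for Bank1, 9.29 for Blk, 9.36 for Pax5, 9.41 for Fcer2a and 10.13 for Cr2. Cd3e crossed at 8.69 weeks, Cd3g at 8.76, Cd3d at 8.87 and Ptprc at 8.76. With each mouse left out in turn the members ranged from 8.79 to 10.61 weeks, the earliest without replicate 3 and the latest without replicate 1 at 10 weeks, and Cd3e ranged from 8.35 to 8.90 weeks. The ranges of single members overlapped with those of their neighbours in this order, and those of Cd79b, Cd79a, Cd22 and Ms4a1 overlapped with that of Cd3e as well. Such an overlap sets fits without different mice beside each other. With the same mouse left out, every member crossed later than Cd3e in each fit. The closest was Cd79b without replicate 2 at 12 weeks, at 8.84 weeks against 8.795 for Cd3e. These fits share most of their mice, so their common order is no test. Cr2 stood at 46.4% of its 12-week mean at 10 weeks, against 64.8% to 80.4% for the other members.

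**Figure D4:**
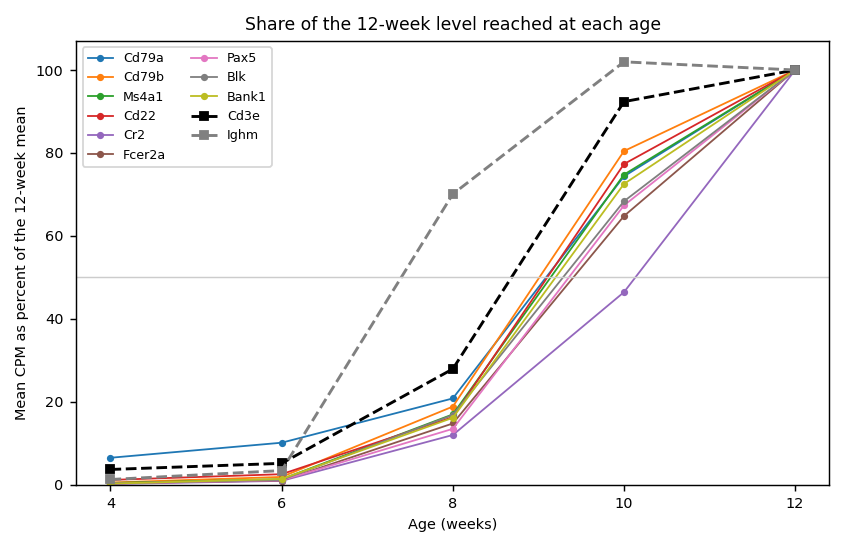
Mean CPM of 3 mice at each age as a percentage of the 12-week mean, for the 9 B-cell lineage genes (solid lines) and for Cd3e and Ighm (dashed lines); the grey line marks 50%. At 8 weeks Ighm stood at 70.1% (39.6% without replicate 3), Cd3e at 27.9% and the members at 12.0% to 20.8%.

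At 8 weeks the immunoglobulin genes Ighm and Igkc stood at 70.1% and 54.3% of their 12-week means and Ighd at 12.4%, beside 12.0% to 20.8% for the members. The value of Ighm was 39.6% without replicate 3 at 8 weeks and 95.8% without replicate 1, and that of Igkc was 39.6% without replicate 3. Ighm, the heavy chain of IgM, is read both from membrane receptor and from secreted antibody, and had 4497, 15036 and 32394 counts at 8 weeks against 20954, 35379 and 25073 at 12 weeks. It crossed 50% of its 12-week mean at 7.40 weeks, and at 7.01 to 8.33 weeks with each mouse left out. Per count of Ms4a1 there were 19.99, 62.4 and 57.1 counts of Ighm in the 8-week-old mice and 9.64 to 22.5 in the mice of 10 and 12 weeks. At 10 against 8 weeks the log2 fold change of Ighm was 0.54 ± 0.85 (edgeR, adjusted p = 0.667), that of the light chain gene Igkc was 1.02 ± 0.85 (adjusted p = 0.388) and that of Ighd, the IgD heavy chain of naive B cells, was 2.39 ± 0.57 (adjusted p = 0.0271). Jchain, which joins secreted IgM and IgA, had 1081 to 6000 counts at 8 weeks and 3883 to 7803 at 12 weeks.

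The 5 genes outside the list whose course was most like that of the members were Fcmr, Il9r, Fcrl1, Tnfrsf13c and Ighd. Likeness was the mean over the 15 mice of the absolute difference between a gene's log2 CPM, centred on its own mean, and the mean of the members' centred values. It was 0.29 for Fcmr, the receptor for IgM, 0.32 for Il9r, the interleukin-9 receptor, 0.37 for Fcrl1, 0.40 for Tnfrsf13c, the receptor for the survival factor BAFF, and 0.46 for Ighd. Among the members themselves it ran from 0.17 for Blk to 1.36 for Cd79a, the least typical. Cxcl13 was at rank 131 (0.90), Ptprc at rank 139 (0.91) and Cd3e at rank 204 (0.997). Mice share depth and an age series here, so this is a description.

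Other genes of the B lineage, taken from lists that do not contain the members, rose from 4 to 12 weeks as well, in a comparison in which 26.3% of all genes were called higher and 27.2% lower. All 20 genes of B-cell receptor signalling passed (median log2 fold change 2.97), among them Btk, a kinase of the receptor pathway, at 4.25 ± 0.77 (edgeR, adjusted p = 0.000863). All 12 transcription factors passed (median 3.30), led by Pou2af1 at 6.67 ± 0.93, Spib at 6.04 ± 0.94 and Ikzf1 at 4.79 ± 0.91. The 11 survival and homing genes tested passed (median 5.14), led by Tnfrsf13c at 7.40 ± 0.89, Cxcl13 at 6.84 ± 0.75 and its receptor gene Cxcr5 at 6.31 ± 1.002, while Tnfrsf17, the receptor BCMA of plasma cells, had 0 to 16 counts per mouse and was not tested. Another 15 surface and antigen presentation genes passed (median 3.96), led by Fcmr at 7.95 ± 0.61, Fcrl1 at 6.72 ± 0.90 and Siglecg at 6.39 ± 0.82. Many genes on these lists are shared with myeloid or T cells. At 10 against 8 weeks 9 of the 20 signalling genes, 6 of the 12 transcription factors, 2 of the 11 survival and homing genes and 3 of the 15 surface genes rose (8.4% of all genes), and at 8 against 6 weeks none of them were called, as no gene was.

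Genes of particular B-cell stages gave a mixed picture at 12 against 4 weeks, where 26.3% of all genes were called higher and 27.2% lower. Of the precursor genes, Rag2 had 0 counts in all mice, Rag1 and Igll1 had at most 2 and Vpreb1 at most 9, so these 4 were not tested. Vpreb3 rose by 6.72 ± 1.19 (adjusted p = 0.000754) and Dntt by 4.98 ± 1.34 (adjusted p = 0.00758) on the log2 scale; the precursor list summed to 2.51 to 3.30 CPM at 12 weeks. Of 5 germinal centre genes tested 4 rose, among them Gcsam (3.59 ± 0.95), S1pr2 (2.07 ± 0.48) and Bcl6 (1.69 ± 0.40), and Mybl1 fell by 1.11. Of 7 plasma cell genes 5 rose, led by Jchain (6.37 ± 1.15), Mzb1 (5.33 ± 0.81) and Irf4 (5.03 ± 0.95), while Derl3 fell by 1.56 and Xbp1 by 0.35; both serve secretion and are also used by endocrine cells.

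Markers of other cell types moved with the B-cell lineage genes. The counts at 12 against 4 weeks stand beside 26.3% of all genes called higher. All 14 T-cell genes rose at 12 against 4 weeks (median log2 fold change 4.79, among them Cd8b1 and Trbc1), and their sum went from 3.80 to 53.9 CPM at 4 weeks to 552 to 752 CPM at 12 weeks. All 7 myeloid genes rose (median 2.78; 33.1 to 162 CPM at 4 weeks, 1021 to 1123 at 12 weeks), as did all 7 follicular dendritic cell genes (median 4.26; 38.4 to 62.7 and 488 to 602 CPM) and 5 of 6 plasmacytoid dendritic cell genes, all but Cox6a2 (median 2.81; 71.8 to 95.5 and 168 to 216 CPM). The 5 genes of high endothelial venules, the vessels by which lymphocytes enter lymphoid tissue, rose with a median of 5.13, and Glycam1 had 0 or 1 count in the 4-week-old mice and 5202 to 8094 counts in the 12-week-old mice. Of 10 endocrine genes 9 fell, all but Sst (median -0.90, against 27.2% of all genes called lower), and 0 of 8 acinar genes were called, their sum being 1262 to 10455 CPM at 4 weeks and 3113 to 12841 at 12 weeks. Of 10 intestinal genes 3 were tested and 2 rose, Cdh17 and Lgals4, and the list summed to 69.9 to 77.5 CPM at 4 weeks. At 12 weeks it summed to 529 CPM in replicate 1 and to 47.6 and 40.5 CPM in replicates 2 and 3, which lay below every 4-week-old mouse, so the high value came from replicate 1. At 10 against 8 weeks all 9 B-cell lineage genes rose, against 8.4% of all genes called higher. At that step 0 of the 14 T-cell, 0 of the 7 myeloid, 0 of the 6 plasmacytoid dendritic cell and 0 of the 5 venule genes were called. The median log2 fold change was 1.72 for the T-cell genes against 2.13 for the members. Of the 7 follicular dendritic cell genes 2, Cxcl13 and Mfge8, rose, and 3 endocrine genes, Neurod1, Gcg and Iapp, fell (8.37% of all genes called lower). The ratio to Cd3e, given above, is the test of the difference between members and T-cell reference, and it was not called. At this step the log2 ratio fell for 9 of 9 members, with a median change of -0.42. Without replicate 1 at 8 weeks it rose for 9 of 9, with a median change of 0.78, and 0 were called. Cr2 and Fcer2a can come from follicular dendritic cells, and the part of these cells in their counts was not tested.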

How the data were processed

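Polyadenylated RNA of the islets of 15 NOD females was sequenced as read pairs. Per the paper, the authors trimmed, aligned and counted reads with CLC Genomics Workbench at its defaults; the labels name mm10. The deposited counts are whole, unnormalized read numbers per gene, and the deposited TPM values, scaled by the authors for length and depth, were used only to compare levels of different genes. A further 30 per-sample columns (RPKM and CPM) were not used here.

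Genes were kept by filterByExpr (16554 of 48709), scaled by TMM and fitted with the quasi-likelihood method of edgeR 4.0.16 in R 4.3.3, with a mean per age and no covariate. Tests were two-sided, with Benjamini-Hochberg adjustment over all genes tested, and a gene was called at an adjusted p under 0.05. A fold change of at least 1.5 with an unadjusted p under 0.05, the threshold in the paper, was counted second. Log2 CPM used a prior count of 2. Log2 ratios to Cd3e were fitted with limma 3.58.1 (trend). Because Cd3e or Ptprc enters every ratio, its error is shared by all genes and the pooled spread counts as 166000 (Cd3e) or 254 (Ptprc) degrees of freedom, against 10 residual, so ratios were also tested with each gene's own spread; this was added after seeing the data, as were leaving out both mice with intestinal transcripts and leaving out mice from the Ptprc ratio and from the 8-week percentages.

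The other alternatives were DESeq2 size factors, library totals, no filter, the edgeR exact test, DESeq2 1.42.0, each mouse left out, the replicate number as a block and, for ratios, other reference genes, a prior count of 0.5, a minimum of 5 counts in every mouse and no trend. The scripts were tested on simulated data. Members and lists were chosen with earlier results of these data known. Named are the 9 members, Cd3e and its replacements, up to 3 called genes per list with the largest change at 12 against 4 weeks and up to 5 not called, the 5 genes most like the members, and Ighm, Ighd and Igkc. Some genes that fall under this rule are not reported here. Other genes, such as Arhgef1 and Apoa4, were named after their values were seen. Replicates are separate mice, and mice of the same age differed by more than sampling noise (15.9 to 127 for the chi-square over its degrees of freedom). Sequences and windows are from RefSeq on GRCm38.p6. Figures were made with matplotlib 3.10.9 in Python 3.11.15.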

Additional observations from a re-analysis of the deposited data

How the results depend on the processing

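The 9 of 9 calls at 12 against 4 weeks, at 10 and 12 against 4 and 6 weeks and for any change over the ages held in every alternative run, with log2 fold changes of 3.79 to 10.33 at 12 against 4 weeks. At 8 against 6 weeks the calls at an adjusted p of 0.05 went from 0 to 8 with the edgeR exact test (1.61% of all genes higher) and with DESeq2 (2.64%). They were 0 to 8 with each mouse left out (8 without replicate 1 at 8 weeks, 4.29% of all genes). By the looser threshold they were 8 to 9 with each mouse left out. At 10 against 8 weeks the calls at an adjusted p of 0.05 were 0 with the replicate block and 0 to 9 with each mouse left out (0 without replicate 1 or 2 at 8 weeks or replicate 1 or 2 at 10 weeks). In each of the fits with 0 members called, 0% of all genes were called higher. Adjusted p of the members over the alternatives was 0.000645 to 0.177. By the looser threshold, 6 against 4 weeks gave 1 member with no filter, 7 with the exact test, 4 with DESeq2, 5 without both mice that held intestinal transcripts and 0 to 6 with each mouse left out, and 12 against 10 weeks gave 1 with no filter, 1 without both mice and 0 to 1 with each mouse left out. Shares of all genes past the looser threshold were computed for the main fit alone. Relative to Ptprc in place of Cd3e, 7 members were called at 12 against 4 weeks and 7 at 10 and 12 against 4 and 6 weeks, both with the pooled and with each gene's own spread. At the steps between consecutive ages 0 members were called relative to Ptprc with either spread. Relative to Cd3e the calls with each mouse left out were 0 to 1 at 12 against 4 weeks, where Cd79a was called lower without replicate 1 at 4 weeks (-3.42), and 0 to 3 at 10 and 12 against 4 and 6 weeks. In the latter Ms4a1, Cr2 and Pax5 were called higher without replicate 1 at 6 weeks (0.0829% of all genes higher). There Cd79a was called lower without replicate 1 at 4 weeks (-2.83), replicate 3 at 6 weeks (-2.61) or replicate 1 at 8 weeks (-2.15). Shares of all genes called lower were not computed for these fits. With all mice, the median change over all genes was -6.06 and -5.63 in these comparisons, so a call lower is not particular to Cd79a. The cause of these differences was not tested. With at least 5 counts in every mouse, 2 members (Cd79a and Cd22) were left to test relative to Cd3e, and neither was called.

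No direction of a called fold change reversed. The replicate numbers do not pair the mice: same-numbered mice of consecutive ages deviated from their age means with correlations of -0.504 to 0.509, and the block changed no count other than that at 10 against 8 weeks. With 0 to 21 counts per mouse for 8 members at 4 weeks, depth limits the size of the folds against that age and any change between 4 and 6 weeks.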
